A study of Mus musculus with 8 samples.

Results

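Interferon response genes of mouse Achilles tendon were followed after partial transection, using 36 genes given by name: the subunits of the type I interferon receptor, sensors of foreign RNA, the transcription factors that carry the signal and the antiviral genes it switches on. Each was found by its symbol in the gene tables of 8 bulk RNA-seq libraries, which list 55450 genes, 15747 of them with values. Of the 36 genes, 35 had values, each on a single row, and Oas3, an oligoadenylate synthetase, was listed without a value. The libraries came from wild-type C57BL/6J mice, 4 from sham-operated tendons and 4 from tendons cut with an ear punch 1.5 mm wide, which removed a semicircle of 0.75 mm from the lateral side. The labels used here do not give the age of the animals, the time between operation and sampling, or whether each library came from a separate animal, so the p-values below reflect how far these samples differ from each other, a spread that may be technical.

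Type I interferons are cytokines released by cells that sense viral or displaced nucleic acid. They bind a receptor made of IFNAR1 and IFNAR2, whose kinases activate STAT2, and this joins IRF9 in a complex that binds the interferon-stimulated response element (ISRE) in the promoters of antiviral genes. Interferon gamma, a product of lymphocytes, acts through a different receptor and the gamma-activated site (GAS), and induces GTPase genes such as those of the guanylate-binding proteins.

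The promoters were searched for both elements. RefSeq windows of 300 bases (GRCm38.p6, 250 bases before to 50 after a gene's start) were found for 28 of the 36 genes, and not for Mx1, Mx2, Oas2, Usp18, Ifi27, Parp9, Parp14 and Iigp1. An ISRE core, searched on both strands as GAAA, any 2 bases, then GAAA, stood in a window of 13 of these 28 genes, against 3.99% of all 27025 gene symbols with a window. A GAS, searched as TTCNNNGAA, which is its own reverse complement, stood in 9 of the 28, against 9.55% of all symbols. The ISRE core was present in 2 of 6 genes that rose after injury, 2 of 4 that fell and 8 of 17 that did not pass the test, and in Oas3, which had no value. The GAS was present in 4 of 6, 2 of 4 and 3 of 17. The following windows show the ISRE core in genes of each outcome, in capitals, Ddx58 and Bst2 having risen, Rsad2 and Gbp7 having fallen, and Ifit1 and Isg15 not having passed.
Ddx58 promoter, chr4:40239776-40240075, reverse strand: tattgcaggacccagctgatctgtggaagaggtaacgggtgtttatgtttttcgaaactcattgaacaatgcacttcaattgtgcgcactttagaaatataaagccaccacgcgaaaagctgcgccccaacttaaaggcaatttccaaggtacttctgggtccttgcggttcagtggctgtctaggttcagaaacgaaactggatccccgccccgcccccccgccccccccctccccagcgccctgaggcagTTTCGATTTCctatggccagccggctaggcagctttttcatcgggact
Bst2 promoter, chr8:71537423-71537722, reverse strand: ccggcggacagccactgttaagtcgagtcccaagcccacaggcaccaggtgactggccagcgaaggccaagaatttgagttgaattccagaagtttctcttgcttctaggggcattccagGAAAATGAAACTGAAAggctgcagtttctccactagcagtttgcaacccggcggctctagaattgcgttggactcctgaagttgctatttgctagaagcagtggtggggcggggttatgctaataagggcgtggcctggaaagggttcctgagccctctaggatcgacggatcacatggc
Rsad2 promoter, chr12:26456403-26456702, reverse strand: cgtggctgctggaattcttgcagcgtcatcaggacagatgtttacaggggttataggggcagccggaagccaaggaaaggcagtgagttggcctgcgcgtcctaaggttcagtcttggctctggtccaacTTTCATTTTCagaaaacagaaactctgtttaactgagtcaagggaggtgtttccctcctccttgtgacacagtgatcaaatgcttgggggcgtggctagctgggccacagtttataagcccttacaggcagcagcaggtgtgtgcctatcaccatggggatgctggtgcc
Gbp7 promoter, chr3:142530086-142530385, forward strand: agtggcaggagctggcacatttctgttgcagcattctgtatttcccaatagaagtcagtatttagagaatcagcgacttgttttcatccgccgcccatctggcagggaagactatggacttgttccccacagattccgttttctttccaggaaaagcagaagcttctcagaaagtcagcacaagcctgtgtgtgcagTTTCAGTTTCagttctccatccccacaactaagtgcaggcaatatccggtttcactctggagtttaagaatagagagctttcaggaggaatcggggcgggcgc
Ifit1 promoter, chr19:34640639-34640938, forward strand: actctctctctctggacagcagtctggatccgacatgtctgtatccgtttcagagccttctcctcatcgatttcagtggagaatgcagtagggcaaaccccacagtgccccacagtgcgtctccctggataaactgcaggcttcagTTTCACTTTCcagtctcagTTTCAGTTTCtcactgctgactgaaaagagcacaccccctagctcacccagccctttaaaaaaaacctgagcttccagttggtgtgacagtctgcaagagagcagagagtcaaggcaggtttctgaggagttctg
Isg15 promoter, chr4:156200769-156201068, reverse strand: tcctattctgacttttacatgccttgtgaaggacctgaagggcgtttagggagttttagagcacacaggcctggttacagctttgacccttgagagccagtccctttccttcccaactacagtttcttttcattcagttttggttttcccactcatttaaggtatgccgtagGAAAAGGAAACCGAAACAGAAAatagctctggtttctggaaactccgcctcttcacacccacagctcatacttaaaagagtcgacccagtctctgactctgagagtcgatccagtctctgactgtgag
In Isg15 the 3 matches overlap each other, beginning at bases -78, -72 and -66 from the gene's start, and in Bst2 the 2 matches overlap each other, and a GAS match overlaps an ISRE match. Ifit1 holds separate matches at -104 and -85. In Rsad2 and Gbp7 the single match begins at -120 and -53. The match of Ddx58 lies just inside the gene, at base 3. These are matches of letters in a window, not measured binding.

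The values are read counts per gene that the authors normalised and rounded to whole numbers, and they summed to between 13596488 and 15545903 in the sham group and between 14568669 and 16263086 in the injury group. Of the tendon cell markers 6 of 6 rose, where 28.5% of all genes were called higher. Their sums were 162361 to 201847 in the sham and 399849 to 460877 in the injury group. Skeletal muscle markers, 33 genes, made up 8.18 to 13.9% of the sham and 0.486 to 2.83% of the injury totals. Sham replicate 4 stood apart from the other sham libraries, with the most muscle and the lowest sum of pan-leukocyte markers (1985 normalised read counts, against 2429 to 2977 in the other sham libraries). It was also the lowest sham library for 25 of the 35 interferon response genes and the highest for 0 of them, where it was the lowest for 34.5% and the highest for 34.6% of all genes. Calls that were gained or lost without it are named below with the genes they concern.

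The changes were divided in direction and mostly small. In limma on log2(value + 1) with Benjamini-Hochberg adjustment over all 15747 genes, 7 of the 35 rose, 6 fell and 22 did not pass an adjusted p of 0.05. Over all genes 59.7% were called, 28.5% higher and 31.3% lower. With every library scaled to the same total, 3 of the 35 rose and 7 fell. Without sham replicate 4 there were 6 that rose and 8 that fell. With the mean log2 level of the skeletal muscle markers as a covariate (the muscle covariate) 4 rose and 3 fell. The share of muscle did not overlap between the groups, so muscle content and injury can hardly be told apart in 8 libraries. Among the 13057 genes whose mean lay within the range of the 35, 56.7% were called, 26.3% higher and 30.4% lower. Only Oas2 and Iigp1 were both called and changed at least 2-fold, where 21.2% of all genes were. The groups did not overlap for 10 of the 35, against 55.6% of all genes. The median log2 fold change was 0.075 for the 35 genes and −0.021 for all genes, and the median size of a change in either direction was 0.34 and 0.43. Spread in the sham group was wider than usual, with a median SD of 0.25 on the log2 scale against 0.18 over all genes. In the injury group it was 0.17 against 0.16. Of the 22 genes that did not pass, 18 had a 95% interval that lay within a 2-fold change either way. The other 4 were Ifit1, Ifit3, Oas1a and Oasl1, whose intervals reached beyond a 2-fold rise. The libraries are of whole tissue, in which fewer cells of a type and less RNA per cell cannot be told apart.

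**Figure D1:**
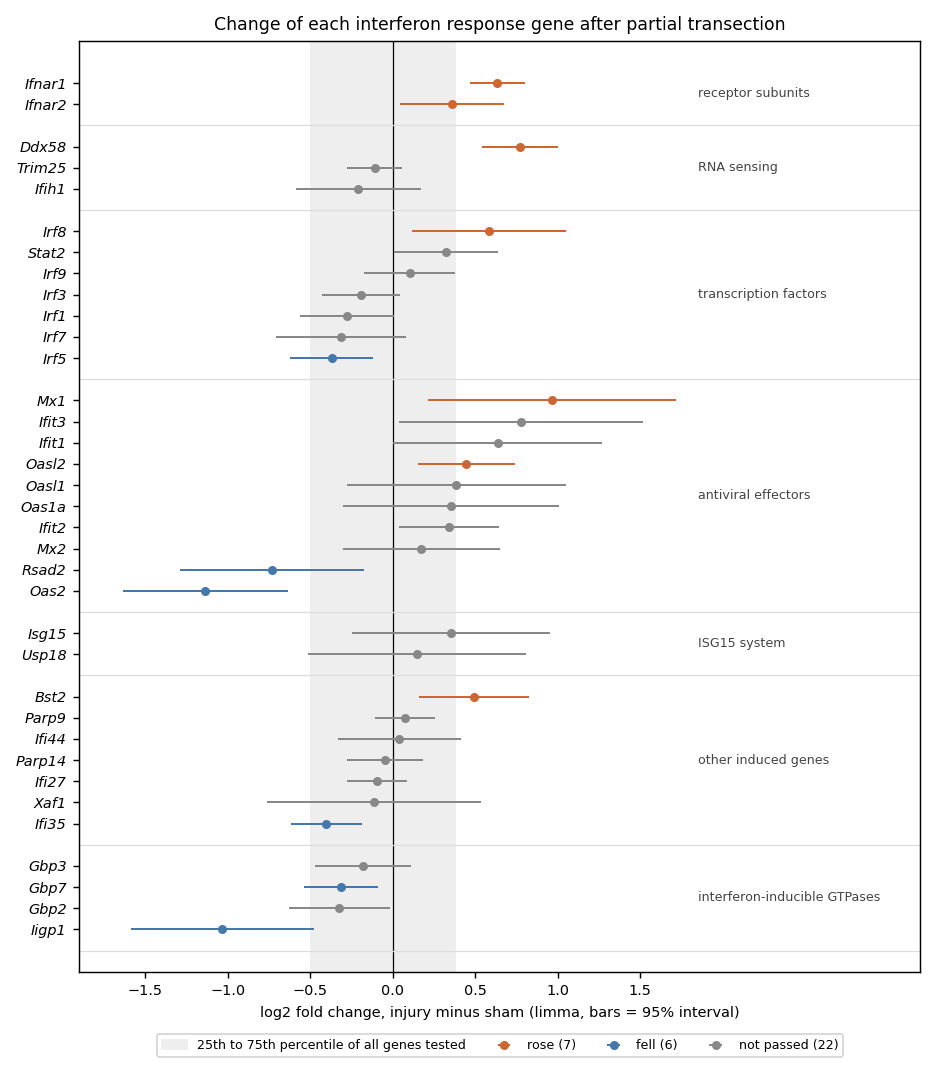
Log2 fold change of each of the 35 genes, injury minus sham (horizontal axis, bars are 95% intervals from limma, 4 libraries a group), by role, with the 25th to 75th percentile of all genes tested as a grey band. The 7 genes that rose include no GTPase, and the 6 that fell include no receptor or RNA sensing gene. Neither gene of the ISG15 system was called. Oas2 and Iigp1 lie farthest to the left at −1.14 and −1.03.

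Both receptor genes rose, where 28.5% of all genes did. Ifnar1 (ENSMUSG00000022967.13), on chromosome 16 at 91485238 to 91507441 in GRCm38, had 805, 849, 801 and 692 normalised read counts in sham replicates 1 to 4 and 1268, 1210, 1174 and 1222 in injury replicates 1 to 4. Every injury library lay above every sham library, and the means were 787 ± 66.8 and 1218 ± 38.8 (SD, n = 4 each). That is a 1.55-fold rise (log2 fold change 0.63, SE 0.074, limma adjusted p = 0.000107), and it passed under every one of the 18 alternative settings. Ifnar2, its partner chain, lies on the same chromosome at 91372783 to 91405589. It had 380, 339, 330 and 237 in sham and 456, 389, 394 and 391 in injury libraries, so the groups were separate but by a narrow gap. Its 1.28-fold rise had a limma adjusted p of 0.0488. The call was lost in 11 of the 18 settings. Among them were the fits without each of sham replicates 2, 3 and 4 and without each of the 4 injury libraries. In those fits the limma adjusted p reached 0.117. With the muscle covariate the log2 fold change of Ifnar2 was 0.0064 (limma adjusted p = 0.988).

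Among the sensors of foreign RNA, Ddx58, which encodes RIG-I, rose. It had 332, 303, 374 and 271 normalised read counts in sham and 512, 577, 523 and 561 in injury libraries. The groups were well apart, at 320 ± 43.8 and 543 ± 30.8 (n = 4 each), a 1.71-fold rise (log2 fold change 0.77, SE 0.10, limma adjusted p = 0.000214) that also passed in all 18 settings. Ddx58 lies on chromosome 4 at 40203773 to 40239828. Ifih1, encoding the related sensor MDA5, had 153, 176, 159 and 117 in sham and 100, 129, 137 and 158 in injury libraries. The ranges overlapped, the sham libraries reaching higher and the injury libraries lower (log2 fold change −0.21, 95% interval −0.59 to 0.17, limma adjusted p = 0.308). When the 3 most muscle-rich libraries for their groups were left out (sham replicate 4 with injury replicates 3 and 4), its log2 fold change was −0.51 and passed (adjusted p = 0.0232). Trim25, a ubiquitin ligase that acts with RIG-I and the most abundant gene of this role by count, had 737, 803, 803 and 742 in sham and 673, 666, 780 and 745 in injury libraries. Its log2 fold change was −0.11 with an interval of −0.28 to 0.057, and without the same 3 libraries it was −0.22 and passed (limma adjusted p = 0.038).

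Of the transcription factors, Irf8 rose, Irf5 fell and the other 5 did not pass, where 28.5% of all genes were called higher and 31.3% lower. Irf8, a factor of macrophage and dendritic cell development, had 136, 187, 177 and 110 normalised read counts in sham and 271, 227, 252 and 162 in injury libraries. Injury replicate 4 lay inside the sham range, so the groups overlapped. Its rise was 1.50-fold (limma adjusted p = 0.0351) and lost its call when sham replicate 1 or 4 or injury replicate 1, 2 or 3 was left out, the limma adjusted p then being 0.0703 to 0.0873. With the muscle covariate it turned to −0.13 on the log2 scale. Irf5, which acts downstream of Toll-like receptors in myeloid cells, went the other way, with 514, 537, 687 and 572 in sham and 479, 399, 491 and 412 in injury libraries. The groups did not overlap, and the fall was 1.29-fold (limma adjusted p = 0.0163). It was not called with the muscle covariate or without the 3 muscle-rich libraries (adjusted p = 0.142 and 0.0539). Exons of Irf5 share 411 bases with those of Tnpo3 on the opposite strand, and the sources used here do not say whether counting used strand. In all, 7 of the 35 genes share exon bases with another gene (Irf1, Irf3, Irf5, Irf7, Irf9, Ifi35 and Parp9), and their values are uncertain to that extent.

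The factors at the core of type I signalling showed no called change. Stat2 had 339, 389, 495 and 319 normalised read counts in sham and 466, 551, 448 and 444 in injury libraries. Only sham replicate 3 reached the injury range, and without it the 1.25-fold difference (log2 fold change 0.32, limma adjusted p = 0.0719) became a log2 fold change of 0.45 that passed with an adjusted p of 0.00771. That was the only 1 of the 18 settings in which Stat2 passed, and with the muscle covariate its log2 fold change was 0.022 (limma adjusted p = 0.963). Irf9, the DNA-binding partner of STAT2, had 316, 371, 411 and 305 in sham and 381, 430, 321 and 371 in injury libraries, with the groups intermixed (log2 fold change 0.10, 95% interval −0.17 to 0.38). Irf7, the factor that amplifies interferon production and is itself induced by interferon, had 172, 137, 153 and 122 in sham and 89, 145, 105 and 135 in injury libraries. The injury libraries tended lower but overlapped the sham libraries (log2 fold change −0.31, limma adjusted p = 0.149). Irf3, which is activated by phosphorylation without new synthesis, had 545, 583, 654 and 511 in sham and 522, 569, 482 and 434 in injury libraries, again overlapping (log2 fold change −0.19, limma adjusted p = 0.143). The muscle covariate brought it to −0.56, with an adjusted p of 0.0421. Irf1, a factor induced chiefly by interferon gamma, had 441, 517, 565 and 389 in sham and 388, 387, 444 and 348 in injury libraries. Its log2 fold change of −0.28 did not pass (limma adjusted p = 0.0841). Without sham replicate 4, the lowest of its group, it was −0.37 and passed with an adjusted p of 0.0206.

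Of the 11 antiviral effector genes, 10 had values. Mx1 and Oasl2 rose, Oas2 and Rsad2 fell, and 6 did not pass. Over all genes 28.5% were called higher and 31.3% lower. By log2 fold change, called or not, 8 of the 10 were higher after injury and 2 lower, with a median of 0.37. Oas2, on chromosome 5 at 120730333 to 120749853, encodes an enzyme that makes 2′-5′-linked oligoadenylates and thereby activates the ribonuclease RNase L. It had 68, 100, 140 and 99 normalised read counts in sham and 48, 53, 43 and 35 in injury libraries. All injury libraries lay below all sham libraries, and the fall was 2.20-fold (log2 fold change −1.14, SE 0.22, limma adjusted p = 0.00182), called in all 18 settings. Oasl2, an oligoadenylate synthetase-like gene at 114896936 to 114912234 on the same chromosome, had 92, 102, 132 and 94 in sham and 128, 145, 147 and 148 in injury libraries. Only sham replicate 3 reached the injury range, and the rise was 1.36-fold (limma adjusted p = 0.0153). Equal library totals, the muscle covariate and leaving out the 3 muscle-rich libraries each ended the call (limma adjusted p = 0.0692, 0.210 and 0.151). The low genes Oas1a, at 12 to 30 in the sham group and 19 to 32 in the injury group, and Oasl1, at 9 to 14 and 9 to 21, did not pass, with intervals that reached from below 0 to 1.01 and 1.05 on the log2 scale. Related oligoadenylate synthetase genes are similar in sequence, and the sources used here do not say how reads shared between them were counted.

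Rsad2 encodes viperin, a radical enzyme that makes a chain-terminating nucleotide. It had 114, 104, 66 and 68 normalised read counts in sham and 49, 38, 49 and 74 in injury libraries. Injury replicate 4 lay above the lowest sham libraries, and the fall was 1.66-fold (log2 fold change −0.73, SE 0.25, limma adjusted p = 0.0288). Leaving out sham replicate 1 or 2, or injury replicate 1, 2 or 3, ended the call, as did the muscle covariate, with which the log2 fold change was −0.29. Mx1 encodes a GTPase that blocks influenza virus, although C57BL/6 mice are known to carry a defective allele. It was among the lowest genes of the group, at 12, 7, 17 and 17 in sham and 20, 38, 19 and 29 in injury libraries. The groups were separate by a gap of a few counts. The 1.95-fold rise (limma adjusted p = 0.0313) did not pass when sham replicate 1 or 2 or injury replicate 2 or 4 was left out. The limma adjusted p then reached 0.0861. Over all the alternative settings that kept Mx1, its log2 fold change was 0.71 to 1.22 and its limma adjusted p reached 0.259. Its neighbour Mx2 had 24 to 39 in the sham group and 30 to 46 in the injury group and did not pass (limma adjusted p = 0.5).

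The Ifit genes, which encode proteins that bind foreign RNA and block its translation, lie together on chromosome 19 between 34550694 and 34650009. They were higher on average in injured tendon but none passed. Ifit2, the most abundant effector by count, had 221, 210, 223 and 147 normalised read counts in sham and 263, 243, 247 and 249 in injury libraries. The groups did not overlap, and its 1.27-fold difference (log2 fold change 0.34) had a limma adjusted p of 0.0517. It passed in 7 of the 18 settings, including the fits without sham replicate 1, 3 or 4. Without sham replicate 4 the log2 fold change was only 0.20, and with the muscle covariate it was 0.084 (limma adjusted p = 0.847). Ifit3 had 198, 111, 110 and 62 in sham and 227, 165, 139 and 253 in injury libraries, with sham replicate 1 inside the injury range. Its log2 fold change of 0.78 (SE 0.33, limma adjusted p = 0.0660) became 1.06 without that library, with an adjusted p of 0.0115, and 0.50 without sham replicate 4, with an adjusted p of 0.149. Ifit1 had 64, 51, 62 and 44 in sham and 55, 87, 74 and 150 in injury libraries. Injury replicate 4 stood highest and injury replicate 1 lay within the sham range. The log2 fold change of 0.64 (limma adjusted p = 0.0775) was 0.84 without injury replicate 1, with an adjusted p of 0.0208, and 0.37 without injury replicate 4, with an adjusted p of 0.156. Ifit3 has a close copy, Ifit3b, and reads may be shared between them.

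**Figure D2:**
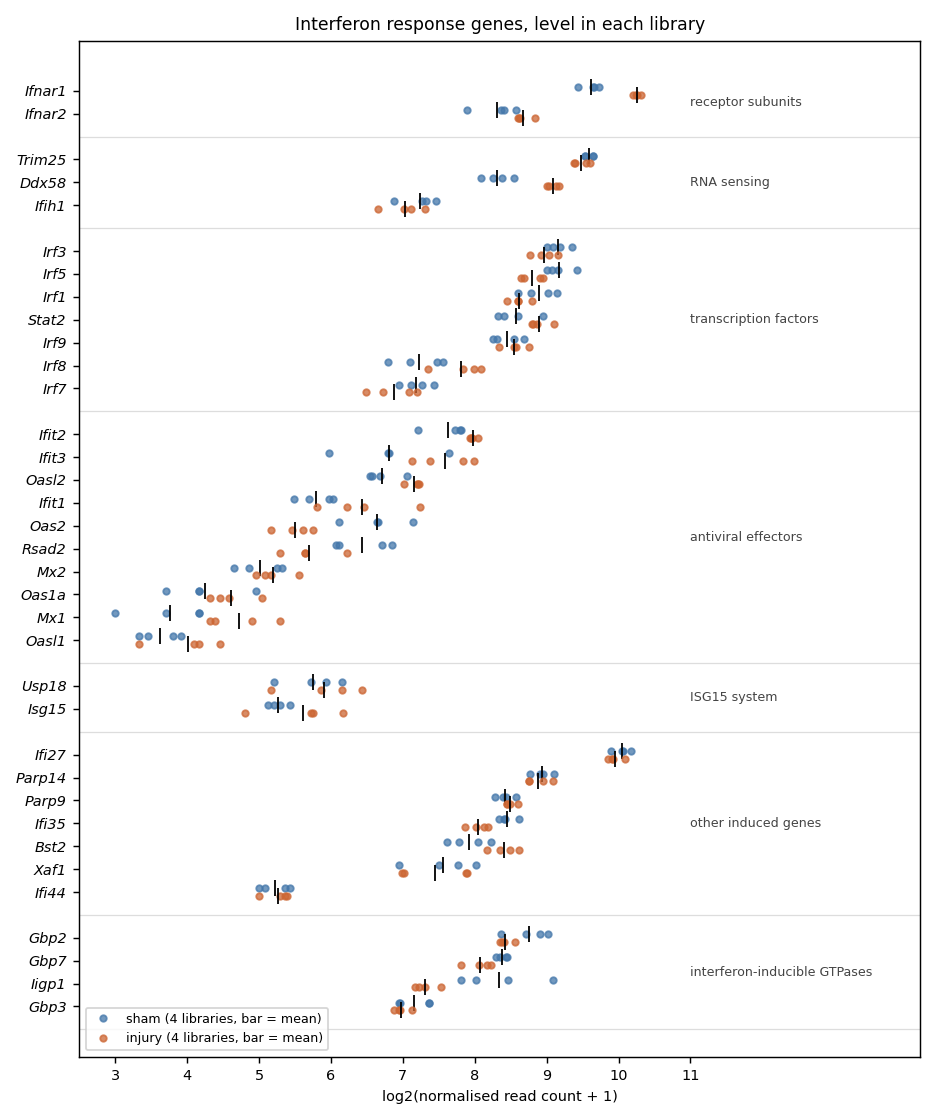
Level of each of the 35 genes in every library, as log2(normalised read count + 1) on the horizontal axis, sham in blue and injury in orange, with a bar at the mean of the log2 values. The groups lie apart for Ifnar1, Ddx58 and Oas2 and are intermixed for genes such as Irf9, Usp18 and Ifi44.

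Isg15 and Usp18, the ISG15 system genes among the 35, were not called in either direction. Isg15 encodes a small protein that is joined to other proteins like ubiquitin and is a standard readout of type I interferon. It had 38, 34, 42 and 36 normalised read counts in sham and 27, 53, 52 and 71 in injury libraries. The sham libraries were tightly grouped, and the injury libraries fell on both sides of them, with injury replicate 1 below and the other 3 above. The log2 fold change was 0.35 (95% interval −0.25 to 0.95, limma adjusted p = 0.278), and without injury replicate 1 it was 0.62 with an adjusted p of 0.0151. Without injury replicate 4 it was 0.17, with an adjusted p of 0.592. Usp18, which removes ISG15 and also dampens the interferon receptor, had 60, 52, 70 and 36 in sham and 35, 57, 70 and 85 in injury libraries, and the injury range spanned the whole sham range (log2 fold change 0.15, limma adjusted p = 0.687). Of the enzymes that attach ISG15, Uba7, the activating enzyme, fell 1.51-fold, from 220 ± 34.2 to 145 ± 17.8 (limma adjusted p = 0.00431). Ube2l6, the conjugating enzyme, went from 268 ± 45.4 to 308 ± 14.8 and Herc6, the mouse ligase, from 88 ± 30.4 to 64.8 ± 7.68, and neither passed (limma adjusted p = 0.171 and 0.259). These 3 enzymes were picked for their function after their values were seen.

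Among other induced genes, Bst2 rose and Ifi35 fell. Bst2 encodes tetherin, a membrane protein that holds budding virus at the cell surface. It had 297, 218, 264 and 195 normalised read counts in sham and 327, 393, 286 and 358 in injury libraries. A single pair of libraries crossed, sham replicate 1 and injury replicate 3, and the rise was 1.41-fold (log2 fold change 0.49, SE 0.15, limma adjusted p = 0.0172). Ifi35 had 340, 393, 322 and 343 in sham and 232, 278, 258 and 290 in injury libraries. The groups did not overlap, and the fall was 1.32-fold (limma adjusted p = 0.00552), with 290 bases of its exons shared with Gm11626 on the opposite strand. Both calls were lost with the muscle covariate (limma adjusted p = 0.497 and 0.528), and that of Bst2 with equal library totals (adjusted p = 0.0656).

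The other 5 genes of this kind did not pass. Ifi27, whose product is a small hydrophobic membrane protein, had the highest count of the 35 genes in sham tendon, with 1059, 1157, 1069 and 950 normalised read counts in sham and 926, 1092, 963 and 974 in injury libraries. Its log2 fold change was −0.10 with an interval of −0.28 to 0.084. Parp9 and Parp14 encode members of the ADP-ribosyltransferase family with macrodomains. They had 311 to 379 and 434 to 547 in the sham group and 347 to 389 and 429 to 543 in the injury group, with intervals of −0.11 to 0.26 and −0.28 to 0.18. Ifi44 was low, at 31 to 42 and 31 to 41, with an interval of −0.33 to 0.41. Xaf1, a gene linked to cell death, had the widest spread of the 5, with 217, 257, 180 and 122 in sham and 236, 235, 126 and 128 in injury libraries. Injury replicates 1 and 2 were nearly equal and high, and injury replicates 3 and 4 nearly equal and low. Its log2 fold change of −0.11 became −1.33 with the muscle covariate (limma adjusted p = 0.0286).

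The 4 interferon-inducible GTPases all had lower means after injury, and 2 of the 4 fell, where 31.3% of all genes did. Iigp1, on chromosome 18 at 60376027 to 60392634, encodes an immunity-related GTPase that attacks the vacuoles of parasites in mouse cells. It had 257, 543, 352 and 224 normalised read counts in sham and 158, 184, 149 and 143 in injury libraries. Sham replicate 2 was far above the rest, but all sham libraries lay above all injury libraries, and the fall was 2.05-fold (log2 fold change −1.03, SE 0.25, limma adjusted p = 0.00552). Without sham replicate 2 it was called as well, and only the muscle covariate ended the call (log2 fold change −1.46, adjusted p = 0.0505). Gbp7 had 347, 345, 326 and 312 in sham and 224, 286, 266 and 299 in injury libraries. The groups were separate and the fall was 1.24-fold (limma adjusted p = 0.0219), a call that was lost without sham replicate 1 or 2 (adjusted p = 0.0573 and 0.0567) and with the muscle covariate, where the log2 fold change was −0.044. Gbp2 had 477, 520, 417 and 328 in sham and 337, 326, 333 and 377 in injury libraries, overlapping through sham replicate 4. Its log2 fold change was −0.32 (limma adjusted p = 0.0646), and −0.45 without that library, with an adjusted p of 0.0039. Gbp3 had 122 to 164 in the sham group and 117 to 139 in the injury group and did not pass. The 3 guanylate-binding protein genes lie within chromosome 3 at 142530342 to 142638008 and are similar in sequence.

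Levels can be compared between genes only per length, here as normalised read counts per kilobase of merged exons. On that scale Ifi27 was highest in sham tendon at 722 ± 57.8, followed by Bst2 at 270 ± 50.7 and Ifi35 at 202 ± 17.6. The ranges of mean ± SD of Bst2 and Ifi35 just met, and Irf5, at 199 ± 26.4, did not differ from Ifi35 beyond their spread. Ifnar1 was rank 8 in sham tendon at 132 ± 11.2 and rank 3 after injury at 205 ± 6.53. The lowest were Mx1 at 3.5 ± 1.26, Oasl1 at 4.41 ± 0.913 and Ifi44 at 5.96 ± 0.868, whose ranges of mean ± SD touch or overlap in that order. Isg15 and Ifit1 were in between, at 49.6 ± 4.52 and 20.8 ± 3.55 in sham and 67.1 ± 23.9 and 34.5 ± 15.5 after injury.

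**Figure D3:**
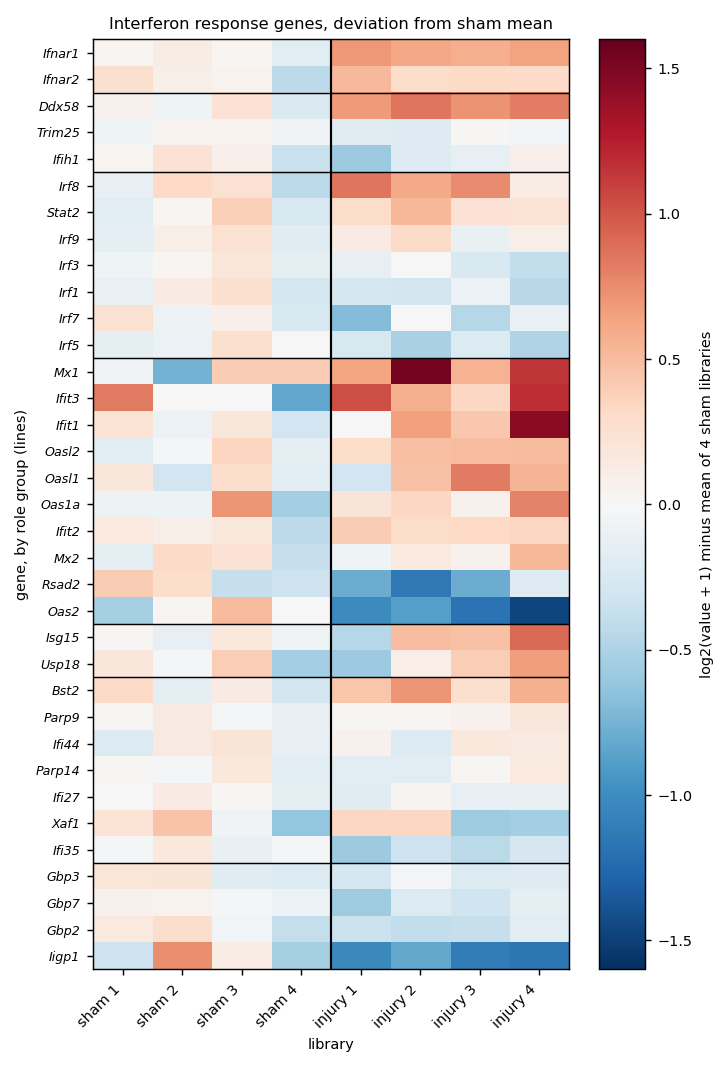
Deviation of each library from the mean of the 4 sham libraries for the 35 genes, in log2 units of value + 1 (colour scale), with libraries in columns and genes in rows by role. Sham replicate 4 is blue for most genes, and injury replicate 4 is the reddest of its group for Ifit1, Ifit3, Isg15 and Usp18.

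Which injury library was highest or lowest varied from gene to gene. Injury replicate 4 was the highest injury library for 14 of the 35 (40%), close to its share of 36.2% over all genes. For Ifit1, Ifit3, Isg15 and Usp18, chosen after their values were seen, it was the highest in each, with 150, 253, 71 and 85 normalised read counts. For Oas2 it was the lowest at 35. Injury replicate 1 was the lowest of its group for 14 of the 35 genes (40%), against 30.8% of all genes. It was the highest for Ifnar1, Ifnar2, Irf8, Ifit2 and Xaf1.

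The rest of the interferon pathway was followed through 102 further genes grouped by function. Of these, 83 had values, 21 rose, 21 fell and 41 did not pass, where 28.5% of all genes were called higher and 31.3% lower. None of 10 interferon ligand genes (Ifna1, Ifna2, Ifna4, Ifna5, Ifnb1, Ifne, Ifnk, Ifng, Ifnl2 and Ifnl3) had a value in any library, and the sources used here do not say by which rule genes were left without values. Of 7 further receptor and JAK-STAT genes, 1 rose and 6 did not pass. Il10rb, a chain of the interferon lambda and interleukin-10 receptors that lies between Ifnar2 and Ifnar1 on chromosome 16, rose from 309 ± 30.2 to 369 ± 17.7 (limma adjusted p = 0.0277), a call that was lost without injury replicate 1 or 3 (adjusted p = 0.0751 and 0.0647).

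Among 18 sensors and adaptors of foreign nucleic acid there were 9 that rose, 2 that fell and 7 that did not pass. The shares over all genes were 28.5% higher and 31.3% lower. The median log2 fold change of the 18 was 0.45. Tlr8, an endosomal receptor of RNA, rose 2.39-fold from 54.8 ± 9.60 to 133 ± 29.3 (limma adjusted p = 0.000291). Sting1, the adaptor that receives the DNA signal from cGAS, rose 1.77-fold from 268 ± 44.2 to 472 ± 33.6 (limma adjusted p = 0.000335). Ticam1, the adaptor of Tlr3 also called TRIF, rose 1.50-fold (limma adjusted p = 0.000446). Mavs, the mitochondrial adaptor through which RIG-I and MDA5 signal, moved the other way, with 1172, 1055, 970 and 1369 normalised read counts in sham and 414, 460, 507 and 527 in injury libraries. That fall of 2.38-fold (log2 fold change −1.25, SE 0.12, limma adjusted p = 3.74e-05) was called in all 18 settings. Ifi203 fell 1.18-fold (limma adjusted p = 0.01).

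Of 37 further interferon-induced genes 7 rose, 10 fell and 20 did not pass, where 28.5% of all genes were called higher and 31.3% lower. Their median log2 fold change was −0.13. Ifi27l2a, the neighbour of Ifi27 on chromosome 12 at 103442167 to 103443680, fell the most of the genes named from these lists, with 1396, 1475, 1300 and 784 normalised read counts in sham and 122, 205, 199 and 265 in injury libraries. That was 6.29-fold lower (log2 fold change −2.65, SE 0.26, limma adjusted p = 4.31e-05) beside an Ifi27 that did not pass. Sham replicate 4 was again the lowest of its group. Parp10, an ADP-ribosyltransferase, fell 1.79-fold and Sp100, a nuclear body protein, 1.51-fold (limma adjusted p = 9.98e-05 and 0.000735), with 205 bases of Parp10 exons shared with Plec. Ifitm2, a membrane protein that blocks viral entry, rose 1.58-fold from 729 ± 98.3 to 1150 ± 153 (limma adjusted p = 0.0013). Lgals9, encoding galectin-9, rose 1.51-fold and Tdrd7 rose 1.29-fold (limma adjusted p = 0.00171 and 0.0066).

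Further GTPases went lower. All 10 with values had lower means in injured tendon, at a median log2 fold change of −0.76. Of the 10, 7 fell and 3 did not pass, where 31.3% of all genes fell. Gbp4 fell 2.18-fold, from 572 ± 31.5 to 266 ± 54.4, Gbp9 fell 1.74-fold, from 548 ± 57.1 to 316 ± 44.0, and Gbp6 fell 4.45-fold, from 102 ± 27.6 to 23.2 ± 11.1 (limma adjusted p = 0.000116, 0.000334 and 0.000363). These genes lie in the other guanylate-binding protein cluster, on chromosome 5, and exons of Gbp4 and Gbp9 overlap by 60 bases. Among 11 negative regulators 4 rose, 2 fell and 5 did not pass, where 28.5% of all genes rose and 31.3% fell. Socs1, which blocks the JAK kinases, had 87, 70, 63 and 60 normalised read counts in sham and 267, 274, 188 and 232 in injury libraries, a rise of 3.40-fold (log2 fold change 1.76, SE 0.16, limma adjusted p = 2.86e-05). Samhd1, a nucleotide hydrolase, rose 1.6-fold and Ptpn6, a phosphatase of blood cells, 1.81-fold (limma adjusted p = 0.000398 and 0.00878). Rnaseh2a and Pias4 fell 1.34-fold and 1.28-fold (limma adjusted p = 0.00575 and 0.00675). Exons of Ptpn6 and Rnaseh2a share 195 and 177 bases with Gm20531 and Prdx2. With the muscle covariate Il10rb, Ticam1, Ifi203, Ifitm2, Tdrd7, Gbp6, Samhd1, Ptpn6, Rnaseh2a and Pias4 were no longer called.

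**Figure D4:**
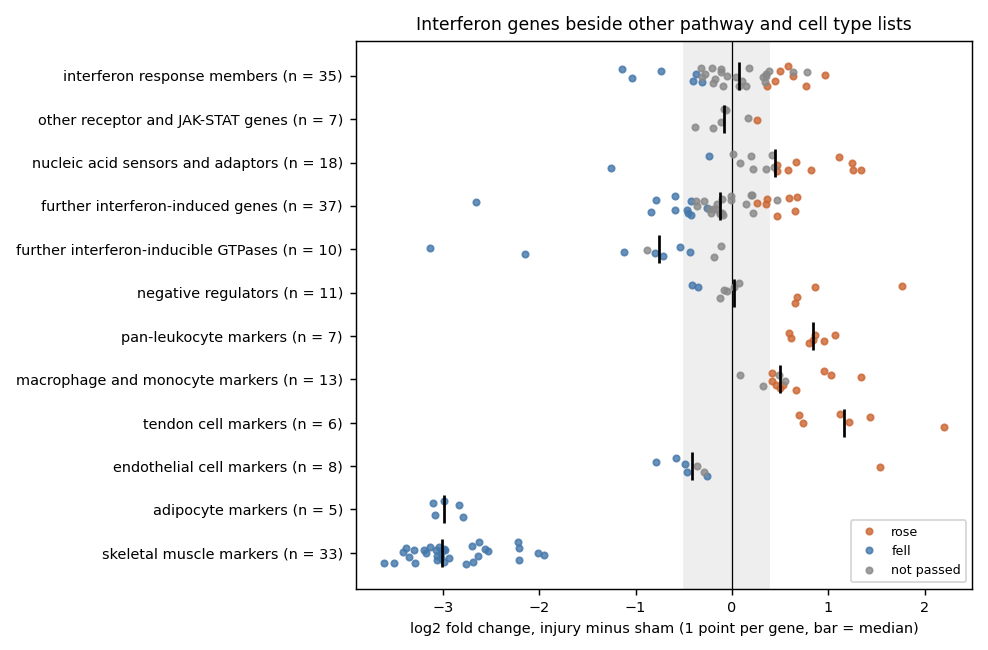
Log2 fold change, injury minus sham, of each gene (points) with the list's median (bar), for the interferon response genes, the other pathway lists and 6 cell type marker lists, with the 25th to 75th percentile of all genes in grey. Pan-leukocyte markers lie to the right at a median of 0.84, while the 35 interferon response genes are centred at 0.075 and the further GTPases at −0.76.

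Cell type markers moved beside these genes, where 28.5% of all genes were called higher and 31.3% lower. All 7 pan-leukocyte markers rose, their summed level going from 1985 to 2977 normalised read counts in sham to 3807 to 4960 in injury libraries, while the sum of the 35 interferon response genes was 8410 to 10529 and 9857 to 10373. The macrophage and monocyte list had 9 of 13 genes higher and 4 that did not pass, with sums of 7539 to 11710 in the sham group against 12590 to 14751 after injury. T cell, NK cell and B cell lists had values for 1 of 6, 1 of 6 and 0 of 4 genes, the T cell gene being Cd4, which rose 3.38-fold (limma adjusted p = 0.000128). The CD3 chain genes Cd3d, Cd3e and Cd3g, Cd8a and Ncr1 were listed without a value. Endothelial markers went lower in 5 of 8 and higher in 1, from sums of 12503 to 15409 to sums of 8814 to 12733. Adipocyte and skeletal muscle markers fell in 5 of 5 and 33 of 33, erythroid markers in 4 of 4 and Schwann cell markers in 3 of 4. Sham replicate 4 was the lowest sham library for all 4 erythroid markers, with 1367 normalised read counts of Hba-a1 against 2608 to 3424. The part of these shifts in the changes of the interferon response genes was not tested.

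**Figure D5:**
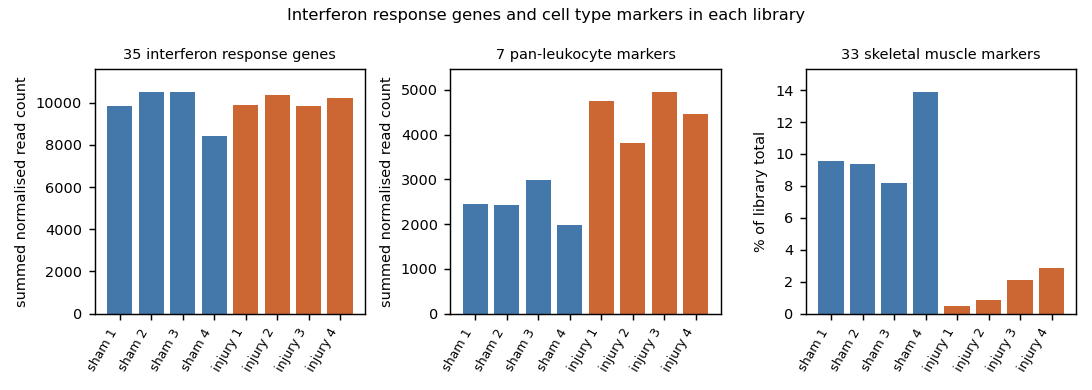
Summed normalised read counts of the 35 interferon response genes and of 7 pan-leukocyte markers, and the share of each library's total in 33 skeletal muscle markers (bars, 1 per library). The interferon sums overlap between the groups, whereas the leukocyte sums do not, at 1985 to 2977 in sham and 3807 to 4960 after injury. The interferon sum combines genes that rose and genes that fell, and abundant genes such as Ifi27 weigh most in it.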

How the data were processed

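For every library the deposited values are scores: normalised read counts per the file headers, which the authors rounded to whole numbers. The submitters' processing notes name edgeR 3.12, StringTie 1.3.5, STAR 2.7.6a and Trimmomatic 0.39, and both mm9 and mm10, without their roles. The sources used here do not state the normalization method or strandedness. The deposited values are not raw counts, so no count model was used. Genes without values (39703 of 55450) were left out.

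The groups follow the sample titles. The test was limma 3.58.1 (R 4.3.3) on log2(value + 1), with a prior variance that followed mean expression, group as the only term, a filter of 1 or more in 4 or more libraries, under which 0 genes were removed, two-sided p-values and Benjamini-Hochberg adjustment over all 15747 genes at 0.05. Fold changes are on that scale, which understates low genes. Exon lengths and positions came from GENCODE M21 (99.9% of gene identifiers matched), promoters from RefSeq. Libraries of a group shared equal values for at most 2.25% of genes.

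The members, gene lists and alternatives were chosen with earlier results of these data known. By rule, values per library are given for called members with at least a 2-fold change, for the most abundant member of a role and for receptors and transcription factors. Those of the other called genes and of Ifih1, Ifit1, Ifit3, Isg15 and Xaf1 were added after their values were seen. Of each pathway list up to 3 called genes in each direction with the smallest adjusted p are named. Figures were drawn with matplotlib 3.10.9. Totals are sums of normalised values, and the number of reads sequenced is unknown.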

Additional observations from a re-analysis of the deposited data

Results flagged for a closer look

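Among the 35 genes in both groups, 70 sets of 4 libraries were examined for a library far from the other 3, a rule that chance meets in about 1 in 20 sets. It was met for 2. Injury replicate 1 stood above the other injury libraries in Ifnar2, at 456 normalised read counts against 389 to 394. Without it the log2 fold change of Ifnar2 was 0.3 and did not pass (limma adjusted p = 0.117). Injury replicate 1 also stood below the others in Oasl2, at 128 against 145 to 148.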

How the results depend on the processing

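Of the 35 genes 7 rose. That count became 3 with equal library totals, 4 with the muscle covariate and 4 without the 3 muscle-rich libraries. Those 3 libraries were sham replicate 4 with injury replicates 3 and 4. Without single libraries the count was 4 to 8, the lowest being without injury replicate 2. The 6 that fell became 3 with the covariate, 9 without the muscle-rich libraries and 4 to 8 without single libraries. The causes were not tested. With the covariate Ifnar1, Ddx58 and Oas2 kept their calls, and Ifit1 and Isg15 became called at log2 fold changes of 1.49 and 1.39. Without the muscle-rich libraries the log2 fold changes of Ifit1 and Isg15 were 0.23 and 0.0008, and neither passed. Other pathway genes went from 21 higher and 21 lower to 6 and 7 with the covariate, and all genes from 4481 and 4921 to 2101 and 1531. Without sham replicate 4 the other pathway genes numbered 21 higher and 25 lower. Equal totals shifted the all-gene median from −0.021 to −0.11. Deviations of same-numbered libraries correlated at 0.25, 0.28, −0.0096 and 0.49 for numbers 1 to 4, and those of different numbers at −0.43 to 0.26. Sham replicates 1, 2 and 4 correlated best with the injury library of their own number. Sham replicate 3 and injury replicates 1 and 3 did not correlate best with their own, and the main test did not take the numbers as pairs. With the replicate block 7 genes rose and 7 fell, Irf1 and Ifit2 being gained and Mx1 lost. A pseudocount of 0.1 or no filter changed no call among the 35, and a single prior variance ended that of Ifnar2.

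Signs reversed for Irf8 and for genes that were not called. With the muscle covariate the log2 fold changes were 0.19 for Ifih1, 0.053 for Trim25, −0.13 for Irf8, −0.19 for Irf9 and 0.18 for Parp14. Without the muscle-rich libraries they were −0.081 for Mx2, −0.42 for Usp18, −0.12 for Ifi44, 0.13 for Xaf1 and −0.021 for Parp9. With equal totals they were −0.049 for Ifi44 and −0.017 for Parp9, and with upper quartile factors 0.00037 for Parp14. Leaving out single libraries gave −0.035 to 0.39 for Usp18, −0.032 to 0.13 for Ifi44, −0.32 to 0.039 for Xaf1 and −0.12 to 0.0088 for Parp14. The deposited values carry no read depth, which limits what can be said of genes as low as Mx1 and Oasl1.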

Other observations

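Plasmacytoid dendritic cells are known as strong producers of type I interferon. Siglech, a surface receptor that marks them in mice, had 73, 53, 66 and 46 normalised read counts in sham and 20, 16, 28 and 6 in injury libraries, a fall of 3.63-fold (log2 fold change −1.86, SE 0.40, limma adjusted p = 0.0031). Of the other 3 markers listed, Pacsin1, which neurons also express, fell 6.06-fold, and Ccr9 and Spib were listed without a value. Of 4 conventional dendritic cell markers with values, 2 fell, where 31.3% of all genes did. Cd209a fell from 115 ± 17.9 to 63.5 ± 7.59 and Zbtb46, also an endothelial gene, from 219 ± 33 to 145 ± 11.1 (limma adjusted p = 0.001 and 0.00252), while Flt3 and Clec9a did not pass, at log2 fold changes of 0.37 and −0.51 (limma adjusted p = 0.221 and 0.101). The macrophage markers Cd68 and Adgre1 rose in the same libraries, 2.52-fold and 1.93-fold (limma adjusted p = 0.000234 and 7.47e-05).

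Of the endosomal receptor genes, Tlr3, Tlr7, Tlr8 and Tlr9 rose 1.38-fold, 2.16-fold, 2.39-fold and 2.38-fold, and the kinase gene Ikbke rose 2.52-fold, from 123 ± 36.3 to 304 ± 47.9 (limma adjusted p = 0.000633). Tlr3, Tlr7, Tlr9 and Ikbke were chosen after their values were seen. Tbk1, which encodes the kinase related to that of Ikbke, had 412 ± 43.6 and 414 ± 19.2 (log2 fold change 0.014, 95% interval −0.19 to 0.22).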
